A study of Caenorhabditis elegans with 2 samples.

Results

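The genes for the protein subunits of the small ribosomal subunit were examined for binding of LET-607 in Caenorhabditis elegans. They were chosen by symbol from the protein-coding genes of the Ensembl WBcel235 annotation, as rps- followed by a number, with ubl-1 added, which gave 32 of 19985 genes. LET-607 is a transcription factor of the CREB3 family. The worms were of strain YL529, a transgenic line in which LET-607 carries GFP and FLAG as a C-terminal tag. The chromatin of whole young adult hermaphrodites, collected 67 h after synchronization of starved first-stage larvae, was immunoprecipitated with an antibody against GFP and sequenced (ChIP-seq). The 2 biological replicates formed 1 group, with no second condition, and whole animals were used, so the tissue in which a site was bound is unknown. No untagged or control sample was analysed here. A relaxed list holds the peaks and background that went into the authors' reproducibility step (IDR), and the IDR list holds the peaks that passed it. Build ce11 had 26463 relaxed peaks for replicate 1, 22592 for replicate 2, 26789 for both pooled, and 2372 IDR peaks. Each peak carries the authors' own signal value, which has no stated unit and was read only within its list. Sequencing depth is unknown. A gene is called bound where an IDR summit lay from 1000 bp upstream to 200 bp downstream of its 5′ end. All counts below are descriptions of these peak lists, and no test over genes was made.

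The small subunit of the cytosolic ribosome binds the mRNA and reads its codons. Its proteins sit on the ribosomal RNA of the small subunit in a head, which holds the mRNA entry side and part of the tRNA sites, and in a body with a platform, which carry the decoding centre and the mRNA exit side. Genes for ribosomal proteins are transcribed strongly in growing tissues. Factors of the CREB3 family are membrane-bound bZIP proteins known for control of secretory pathway genes, for which the core TGACGT is a recognition sequence.

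Sequences of 101 bases centred on the IDR summits are printed for 5 genes, because they show the strongest site (rps-18), the next strongest of the 14 bound genes from which sequences are drawn (rps-1, rps-23 and rps-4), and the single site with the CREB-type core (rps-3). Each is written on the strand of its ribosomal gene, from RefSeq sequence of build WBcel235 (ce11 coordinates). Capitals mark TGACGT and the heptamers TACGGTA and CAGCCAA on either strand. No marked sequence lies in the window of rps-4.
rps-18 (chrIV:14824956-14825056, plus strand): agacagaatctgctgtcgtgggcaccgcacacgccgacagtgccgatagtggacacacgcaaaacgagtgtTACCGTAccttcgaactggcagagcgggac
rps-1 (chrIII:4475604-4475704, plus strand): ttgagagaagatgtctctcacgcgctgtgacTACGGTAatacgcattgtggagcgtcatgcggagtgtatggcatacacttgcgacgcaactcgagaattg
rps-23 (chrIV:12391272-12391372, minus strand): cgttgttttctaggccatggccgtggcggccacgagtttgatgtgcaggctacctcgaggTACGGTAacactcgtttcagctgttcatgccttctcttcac
rps-4 (chrIV:7084885-7084985, minus strand): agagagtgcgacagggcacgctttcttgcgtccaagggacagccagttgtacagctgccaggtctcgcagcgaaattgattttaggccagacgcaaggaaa
rps-3 (chrIII:6206399-6206499, plus strand): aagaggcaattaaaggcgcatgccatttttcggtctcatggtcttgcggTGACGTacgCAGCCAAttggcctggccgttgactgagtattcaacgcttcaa

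Longer runs of identical sequence recurred near several summits. Within 100 bp of the summits of 14 bound small subunit genes, runs of at least 12 bases found in 3 or more genes and at 100 or fewer places in the genome joined into 2 stretches, of 17 and 14 bases. They are shown in capitals with 12 flanking bases on each side, each on the strand that gives the same reading. The first 3 lines hold the 17-base run and the last 3 the 14-base run.
rps-18 (chrIV:14825005-14825045, plus strand): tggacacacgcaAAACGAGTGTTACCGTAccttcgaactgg
rps-23 (chrIV:12391284-12391324, plus strand): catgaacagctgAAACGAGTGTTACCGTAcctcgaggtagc
rps-13 (chrIII:6375149-6375189, minus strand): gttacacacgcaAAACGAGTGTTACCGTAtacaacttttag
rps-0 (chrIII:4754309-4754346, plus strand): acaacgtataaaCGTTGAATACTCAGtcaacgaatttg
rps-3 (chrIII:6206468-6206505, minus strand): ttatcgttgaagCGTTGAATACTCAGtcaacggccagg
rps-30 (chrV:7776333-7776370, minus strand): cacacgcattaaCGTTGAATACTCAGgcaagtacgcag

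LET-607 peaks stood upstream of most small subunit genes. Of the 32 genes, 20 (62.5%) were bound, against 7.76% of all protein-coding genes (1550 of 19985). Each of the 20 had an IDR peak of its own among them. By chromosome, 6 of 8 genes were bound on I, 0 of 1 on II, 7 of 10 on III, 6 of 10 on IV and 1 of 3 on V, and none of the 32 is on X. A relaxed summit lay in the same window of 31 genes in the pooled list, against 36.4% of all genes, of 31 in replicate 1, against 35.8%, and of 30 in replicate 2, against 32.8%. The median nuclear rank of the bound small subunit genes by signal was 355.5 among 2349 nuclear peaks, and that of all bound genes was 1053.5. Of the 20 genes, 11 stood within the first 400 nuclear ranks (55%), as did 10 of 26 bound large subunit genes (38.5%) and 22.3% of all bound genes. The limit of 400 was not set in advance, and no bound small subunit gene ranked between 366 (rps-26) and 604 (rps-0). At 14 genes the peak lay between the 5′ ends of a divergent pair, and which of the pair it belongs to cannot be told apart. With each summit given only to the nearest 5′ end among the genes whose window held it, 9 of the 32 genes were bound, against 5.95% of all genes. Over the 5′ ends of all protein-coding genes, 8 were bound, against 5.88%, and the gene lost between these counts was rps-18. Among genes whose window overlapped no other protein-coding gene's window, 1 of 7 was bound (rps-17), against 5.01% of such genes.

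**Figure D1:**
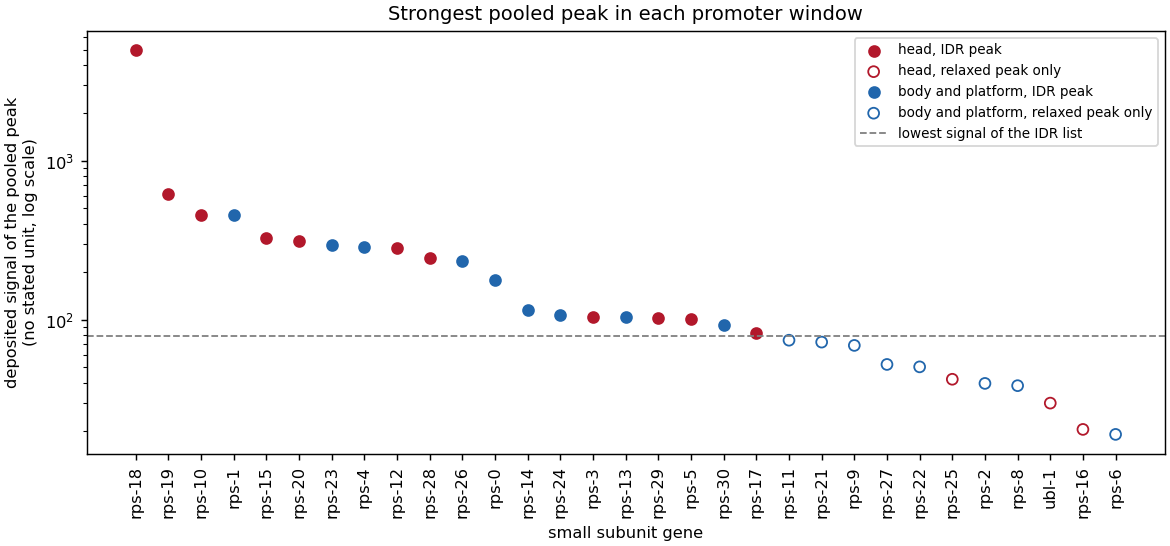
Deposited signal of the strongest pooled peak in the promoter window of each of the 31 small subunit genes that had one (log scale), in falling order. Filled points are genes with an IDR peak and open points genes with a relaxed peak only, coloured by position in the subunit. The dashed line is the lowest signal in the IDR list (78.2), and rps-18 at 4933 stands far above rps-19, the next, at 614.

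Among the 14 genes for proteins of the head, 11 were bound, and among the 18 for the body and platform, 9 were, against 7.76% of all protein-coding genes. With each summit given only to the nearest 5′ end among windows that held it, 5 of the 14 head genes were bound. Of all 32 small subunit genes 9 were, against 5.95% of all protein-coding genes. Over the 5′ ends of all protein-coding genes, 4 of the 14 head genes and 8 of the 32 were bound, against 5.88%. The difference between head and body was not tested. The strongest peak was that counted for rps-18, a head protein. Its signal was 4933 in the pooled list, 2564 in replicate 1 and 2376 in replicate 2, at ranks 9, 9 and 8 of those lists. That peak was 40.5 times the IDR list's median signal of 122, while the other 19 genes ranged from 0.678 to 5.04 times. Its summit lay 673 bp upstream of rps-18, within sec-61.A, in an exon but outside its coding sequence, with the start of sec-61.A only 258 bp away and thus nearer than that of rps-18. That gene encodes the pore subunit of the ER translocation channel. On ce11 the peak spanned chrIV:14824605-14825399 and rps-18 itself spans chrIV:14825679-14826477 on the plus strand. 

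The other bound head genes ranged from rank 94 (rps-19) to rank 2195 (rps-17) in the pooled list. The gene rps-19, whose human counterpart is mutated in Diamond-Blackfan anaemia, had signals of 614 pooled, 311 in replicate 1 and 304 in replicate 2. For rps-10 they were 458, 232 and 223. For rps-15, a protein near the decoding site, the values were 326, 157 and 170. These 3 genes held ranks between 90 and 264 in both replicates. The signals of rps-20 were 313, 160 and 154, those of rps-12 were 282, 162 and 123, and those of rps-28 were 243, 132 and 103. Weaker peaks stood at rps-3 (104 pooled, 45.5 and 48.8 in the replicates), whose protein lines the mRNA entry channel. Similar values were found at rps-29 (103, 46.3 and 59.7) and rps-5 (101, 58.8 and 40.9). The weakest bound gene of all 20 was rps-17, with 82.6 pooled, 53.3 in replicate 1 and 39.4 in replicate 2.

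Of the body and platform genes, rps-1 had the strongest peak, with 454 pooled, 241 in replicate 1 and 205 in replicate 2. The gene rps-23, for a protein at the decoding centre, followed with 296, 178 and 119. For rps-4 the signals were 286, 155 and 123, and for rps-26, a protein of the mRNA exit side, 234, 103 and 133. The gene rps-0, the worm counterpart of the human laminin receptor ribosomal protein, had 177, 107 and 69.1. A gap in signal followed, since no small subunit gene lay between 177 and 114. Below it were rps-14 (114, 44.2 and 72.2), rps-24 (106, 65.2 and 44.6), rps-13 (103, 72.3 and 31.8) and rps-30 (92.5, 63.4 and 26.4). The peak of rps-26 lay within 100 bp of the snoRNA gene F39B2.14, and no other bound small subunit gene had a tRNA, snoRNA or snRNA gene so near its summit.

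The 12 genes that were not bound differed widely in how far they fell below the IDR threshold. Just below it were rps-11 (pooled signal 74.1, rank 2565), rps-21 (72.1, rank 2658) and rps-9 (68.7, rank 2849), while rps-17 with 82.6 at rank 2195 was just above. The replicates of rps-11 were far apart, with rank 1763 in replicate 1 and 9956 in replicate 2. Further down came rps-27 (rank 4251), rps-22 (4479), rps-25 (6153), rps-2 (6893) and rps-8 (7386). The gene ubl-1, whose protein is made as a fusion with a ubiquitin-like part, had rank 12052. The weakest pooled peaks were at rps-16 (rank 23103) and rps-6 (rank 25502), neither of which had a relaxed peak in replicate 2. The product of rps-6 is the ribosomal protein known for phosphorylation downstream of TOR. The gene rps-7 had no pooled peak and no peak in replicate 1, and a relaxed peak at rank 6326 in replicate 2. The nearest IDR summit lay between 941 and 106874 bp from the 5′ ends of these 12 genes, and within 2000 bp for 2 of them, rps-27 and rps-16. At rps-27 it lay 941 bp downstream of the 5′ end, beyond the gene's far end, and at rps-16 it lay 1792 bp upstream.

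The replicates placed the peaks of the bound genes at similar ranks and positions. Of the 20 bound genes, 19 had their relaxed peak among the 2372 strongest of replicate 1, 18 among those of replicate 2 and 17 in both. Outside that limit were rps-14 in replicate 1 (rank 2458) and rps-13 and rps-30 in replicate 2 (ranks 3358 and 4872). Of the 12 other genes, rps-11 in replicate 1 was within it and none was in replicate 2. Spearman's rho of the ranks in the 2 replicates was 0.824 over the 20 genes, a description over genes that share both libraries and were selected through the IDR list. At each of the 20 the peak had the same rank in the IDR list as in the pooled relaxed list, down to rank 2195 (rps-17). The strongest summits of the replicates lay a median of 21 bp apart and within 50 bp of each other at 18 genes. They were 137 bp apart at rps-29 and 156 bp at rps-17.

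**Figure D2:**
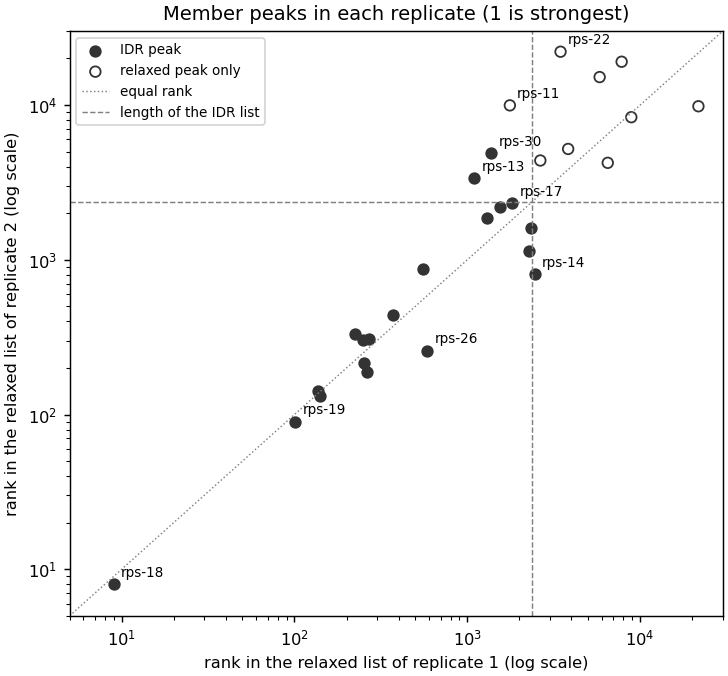
Rank of the strongest relaxed peak in the promoter window in replicate 1 (horizontal) and replicate 2 (vertical), both on log scales, for the 29 small subunit genes with a peak in both. Filled points are genes with an IDR peak, open points those without, the dotted line marks equal rank and the dashed lines the length of the IDR list (2372). The strongest, rps-18, stands at ranks 9 and 8, and of the bound genes rps-30 stands farthest from the line, at 1378 and 4872.

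Summits lay well upstream of the annotated 5′ ends and within a narrow band. Over the 20 bound genes the median distance was 308 bp upstream, with quartiles of 261 and 360 bp and a range from 162 (rps-12) to 673 bp (rps-18). Over all 1550 bound genes the median was 242 bp and the quartiles 120 and 434 bp. Between 160 and 430 bp upstream lay the summits of 18 of the 20 genes (90%), against 41.1% of all bound genes. The same band held the summits of 21 of the 26 bound large subunit genes (80.8%), so it is not particular to the small subunit. These limits were set after the positions were seen. Among the small subunit genes the exceptions were rps-29 (536 bp) and rps-18. No such summit lay downstream of the 5′ end of a bound small or large subunit gene, as 7.10% did over all bound genes. No IDR summit lay inside any of the 32 small subunit genes. These are short, with a median length of 764 bp against 2026 bp over all protein-coding genes. The share of all genes with a summit inside was not counted, so no comparison is drawn. Except for rps-18, the summits were in sequence that holds no annotated protein-coding gene.

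Shared promoters were common among these genes. At 15 of the 20 bound genes (75%) the summit also lay in the window of at least 1 other protein-coding gene. This was so at 17 of the 26 bound large subunit genes (65.4%) and at 46.6% of all bound genes. At 14 of the 15 small subunit genes a divergent gene was among those sharing the summit. In 3 cases the divergent gene encoded a large subunit protein, at rps-10 with rpl-24.1, rps-14 with rpl-36 and rps-30 with rpl-39. The summit at rps-10 lay 329 bp from that gene and 281 bp from rpl-24.1. For rps-14 and rpl-36 the distances were 269 and 394 bp, and for rps-30 and rpl-39 they were 315 and 184 bp. The other divergent partners were hsr-9 (rps-19), ifet-1 (rps-1), F36A2.9 (rps-15), ekl-4 (rps-20), ska-3 (rps-12), tmem-107 (rps-26), rbg-3 (rps-0), sna-3 (rps-3), nfx-1 (rps-13), snt-2 (rps-29), dpm-3 (rps-23) and, besides rpl-36, ndab-2 (rps-14, 895 bp from the summit). Of these, ifet-1 is a regulator of mRNA translation, dpm-3 a subunit of dolichol-phosphate mannose synthase and snt-2 a synaptotagmin. At rps-23 the summit was nearly midway, 269 bp from rps-23 and 265 bp from dpm-3. At rps-26, rps-29 and rps-0 it lay 33, 31 and 55 bp from the neighbour and 424, 536 and 318 bp from the ribosomal gene. In all, the neighbour was nearer at 11 genes and the ribosomal gene at 4. At rps-28 the other gene, Y41D4B.4, was on the same strand, and the ribosomal gene was the nearer. The remaining 5, rps-18, rps-4, rps-24, rps-5 and rps-17, shared their summit with no other window, although for rps-18 the 5′ end of sec-61.A was nearer and the summit fell just outside that gene's window. Of the 12 unbound genes, 6 had a window that overlapped no other, and of the 20 bound genes 1 did, against 66.2% of all protein-coding genes.

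**Figure D3:**
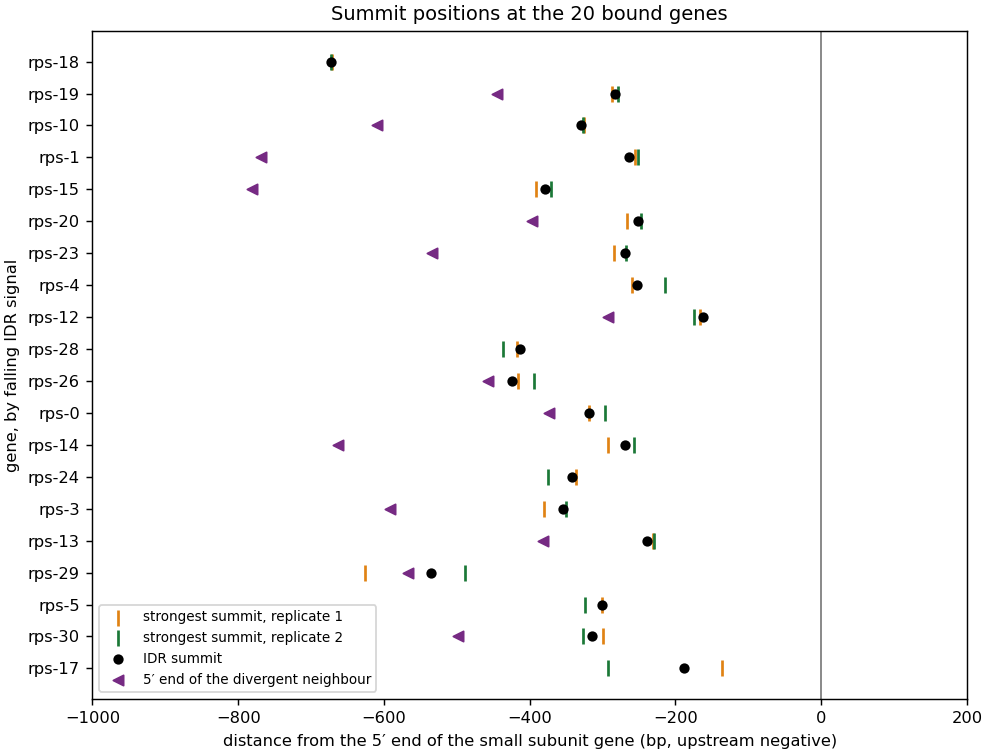
Position of the IDR summit (black points) and of the strongest summit in replicate 1 (orange ticks) and replicate 2 (green ticks) relative to the 5′ end of each of the 20 bound small subunit genes, in bp with upstream negative, ordered by falling IDR signal. Purple triangles mark the 5′ end of the divergent neighbour. Black points run from 673 to 162 bp upstream and lie between the gene and its divergent neighbour wherever there is one.

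The CREB-type core TGACGT, searched on both strands within 50 bp of the summit, was found at 1 of the 20 bound genes (5%), rps-3, where its centre lay 1.5 bp from the summit. It was at 9.38% of 1194 other promoter peaks, those of no ribosomal protein gene, and at 8.22% of all IDR peaks. The overlapping sequence GACGTG and the longer TGACGTGG were at none of the 20, against 8.38% and 1.68% of other promoter peaks, and GATAAG was also at none, against 10.3%. At the share of other promoter peaks, 1.88 of 20 genes would hold TGACGT, so counts of 0 or 1 say little. CACGTG, which differs from GACGTG in its first base, was at 1 gene (rps-29), against 6.70%. TGCAGT, which is TGACGT written backwards, was at none, against 7.37%. Over the whole promoter window of 1201 bases, TGACGT was present at 9 of the 20 bound and 3 of the 12 unbound genes, and at 32.6% of all protein-coding genes. The bases within 50 bp of the summits were 49.0% G or C at the median for the 20 genes and 45.5% for other promoter peaks.

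Both heptamers marked in the printed windows were picked after the sequences were seen, as those with the largest excess over other promoter peaks. TACGGTA was found (both strands, 50 bp to each side of the summit) at 6 of the 20 bound genes (30%), rps-18, rps-10, rps-1, rps-20, rps-23 and rps-17, against 2.01% of other promoter peaks. It was at 7 of the 26 bound large subunit genes, of which rpl-24.1 shares its summit with rps-10. Of the 23 large subunit genes that share no summit with a small subunit gene, 6 had it. Within 25 bp of the summit it remained at 2 genes. CAGCCAA was likewise at 6 genes, rps-19, rps-15, rps-20, rps-0, rps-14 and rps-3, against 1.42% of other promoter peaks. It was at 3 of 26 bound large subunit genes, of which rpl-36 shares its summit with rps-14, and at 2 of the 23 that share none. Only rps-20 had both, so 11 of the 20 genes carried at least 1 of them. In whole promoter windows TACGGTA was present at 7 of 20 bound and 1 of 12 unbound small subunit genes and at 14.7% of all genes. For CAGCCAA these were 8 of 20, 3 of 12 and 12.4%.

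The 2 longer runs shown above were limited by selection to few places in the genome. Their copies outside the genes used to find them often lay at LET-607 peaks. The 17-base run, which ends in the reverse complement of TACGGTA, occurred at 15 places in the genome. It stood at the peaks of rps-18, rps-23 and rps-13, which served to find it, and of rps-10, which did not. Of the 12 places outside the 3 genes used to find it, 7 lay within 100 bp of an IDR summit and 9 of a pooled relaxed summit. Sequence that near to an IDR summit makes up 0.475% of the genome, and to a pooled relaxed summit 5.37%. These shares are over the whole genome, not over promoters. Of those 12 places, 8 lay in no promoter window of a ribosomal protein gene, and 4 of these 8 were within 100 bp of an IDR summit. Of all 19985 promoter windows 23 (0.115%) held the run, and 17 of these 23 genes were bound, against 7.76% of all protein-coding genes. The 17 include genes at the 3 peaks used to find the run, which were bound by selection. Genes that share a copy and a peak were each counted. Among the 23 were 4 small subunit and 4 large subunit genes, of which rpl-34 alone was not bound. Besides rpl-24.1, which faces rps-10, the large subunit genes were rpl-21, rpl-11.2 and rpl-34. The 14-base run occurred at 20 places. It stood at the peaks of rps-0, rps-3 and rps-30, which served to find it, and of rps-20, which did not. Of its 17 other places, 10 lay within 100 bp of an IDR summit and 11 of a pooled relaxed summit. In no promoter window of a ribosomal protein gene lay 12 of the 17, and 6 of these 12 were within 100 bp of an IDR summit. The 14-base run lay in 18 promoter windows (0.0901% of all), and 14 of these 18 genes were bound, against 7.76% of all protein-coding genes. Here too the count includes genes at the 3 peaks used to find the run, and genes sharing a copy were each counted. The 18 included 5 small subunit genes, with rps-22 as the one not bound, and the large subunit genes rpl-39, rpl-32, rpl-13 and rpl-7A, all 4 bound. Of these, rpl-39 holds the copy at rps-30. Other copies lay at genes that encode no ribosomal protein, among them the bound genes rpn-5 and top-2 for the 17-base run and rpa-2 and ints-4 for the 14-base run. Such genes with a copy but no IDR summit in the window included fubl-3 and ppm-1.H for the 17-base run and Y6G8.15 and polh-1 for the 14-base run. The runs were chosen from the peaks of these genes, so the copies at those peaks are a description. Whether LET-607 or another factor reads either run was not tested.

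**Figure D4:**
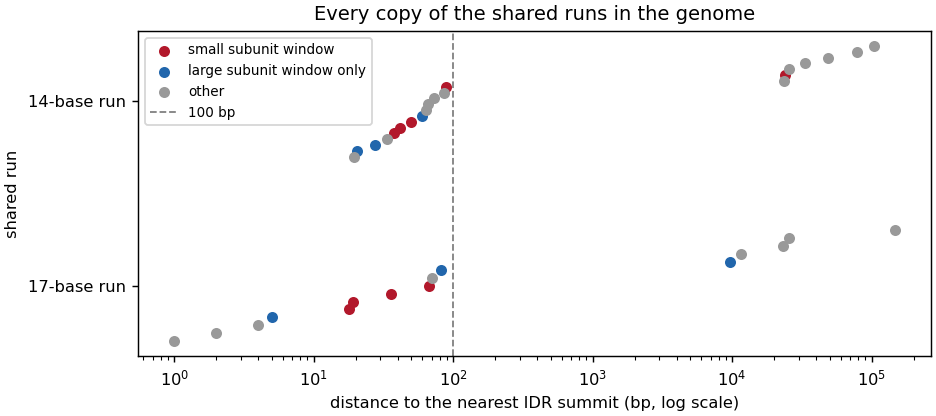
Distance from every copy of the 17-base run (15 copies) and the 14-base run (20 copies) in the genome to the nearest IDR summit, in bp on a log scale. Red points are copies in the promoter window of a small subunit gene, blue points in that of a large subunit gene only, grey points elsewhere, and vertical spread within a row only separates the points. Copies fall either within 100 bp of a summit (10 and 13 copies) or 9611 bp or more away.

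Other genes of protein synthesis were bound to varying degrees. Of 50 large subunit genes, 26 (52%) were bound, 3 of them through a summit shared with a small subunit gene, with the highest signals at rpl-1 (1128), then rpl-3 (1034) and rpl-20 (911). Their median nuclear rank was 679 and their summits lay a median of 296.5 bp upstream. Of 39 genes for translation initiation and elongation factors, 15 (38.5%) were bound, led by iff-2 (2703), eef-2 (692) and eef-1G (402), with a median distance of 220 bp. Of 29 genes for proteins of the mitochondrial small subunit, 4 (13.8%) were bound, led by mrps-35 (126), mrps-7 (117) and mrps-17 (104), and their median nuclear rank was 1385.5. The differences between these lists were not tested.

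**Figure D5:**
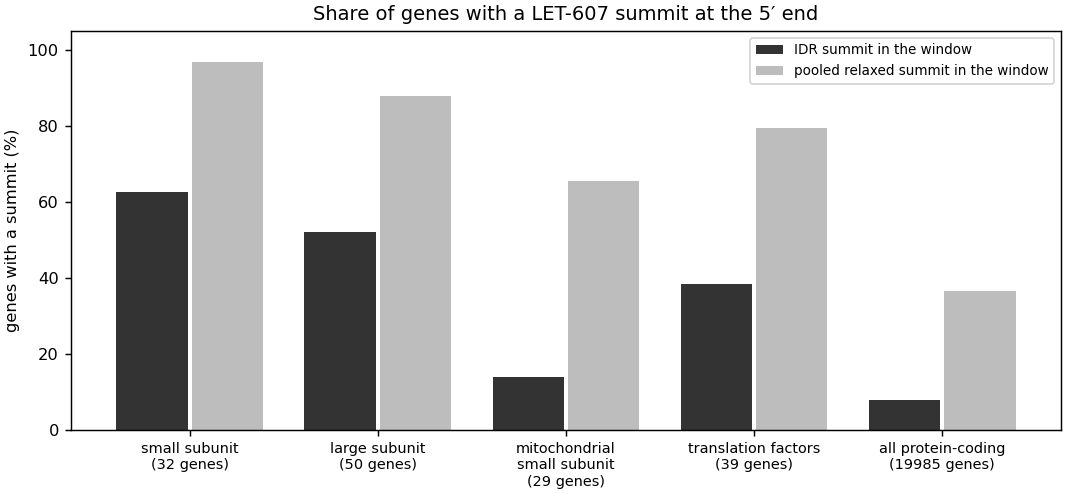
Share of genes with an IDR summit (dark bars) or a pooled relaxed summit (light bars) from 1000 bp upstream to 200 bp downstream of the 5′ end, in percent, for the small subunit genes, 3 other lists and all protein-coding genes. The dark bars stand at 62.5%, 52%, 13.8%, 38.5% and 7.76% from left to right.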

How the data were processed

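Per the deposited file descriptions, peaks and background were called on the ce11 alignments of each of the 2 replicates and of both pooled, against 1 control file, and an optimal IDR list was derived from these lists. Neither the aligner nor the peak caller is stated there. The signal per peak is the authors' deposited value (column 7), with an unstated scale, and ranks were taken within each list. The ce10 lists were not used. Genes, 5′ ends and exons came from Ensembl release 115, whose WBcel235 coordinates are those of ce11, and sequence from RefSeq. Coordinates are 1-based. Depth is unknown, so no counting interval could be given.

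Summits were placed in windows from 1000 bp upstream to 200 bp downstream of the gene model's 5′ end, and the strongest summit represented a gene. All small subunit genes are named, with the 3 strongest bound genes of each other list and genes sharing a summit. The members, the lists and the 6 fixed sequences were chosen with earlier results of these data known, and the heptamers and shared runs after the sequences were seen. Runs came from the 14 bound genes whose sequence may be printed. Alternatives were other windows, gene assignments and peak sets, and each replicate left out. Summit assignment was tested on simulated data. Scripts ran in Python 3.11.15 with pandas 2.3.3, numpy 2.4.6 and, for the plots, matplotlib 3.10.9.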

Additional observations from a re-analysis of the deposited data

How the results depend on the processing

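With 500 or 2000 bp of upstream sequence, 18 and 21 small subunit genes were bound (6.24% and 10.1% of all genes), and with 500 bp the median summit position was -292 (upstream negative), against -308. In the stronger 1186 peaks of the IDR list, 12 of 32 genes had a summit (4.25% of all genes), 7 of them head genes, at a median position of -300.5 and a median nuclear rank of 218, with TGACGT at 0. With only the nearest 5′ end among windows that held the summit, 9 were bound (5.95% of all genes), 5 of them head genes, with TGACGT at 0 and, by construction, 0 shared summits. Over all 5′ ends, added after seeing the data, 8 were bound (5.88% of all genes), 4 of them head genes. Among the 7 genes whose window overlapped no other, 1 was bound (5.01% of such genes), 1 a head gene, at position -188 and rank 2172, with TGACGT at 0 and, by construction, 0 shared summits. TGACGT was at 2 genes within 100 bp of the summit. Without replicate 1 or 2, using the 2372 strongest peaks of the other, 18 to 20 genes were bound (7.44% and 7.79% of all genes), 11 to 11 of them head genes, at median positions of -310.5 to -309.5 and ranks of 296 to 444.5, with TGACGT at 1 to 1, 13 to 14 shared summits, and 30 to 31 genes with a relaxed peak. A setting chosen after seeing the data left out summits within 300 bp downstream of another gene's 5′ end. It left 19 genes bound and removed rps-18, the strongest site. The share of all genes bound under this setting was not computed. No paired analysis was possible because there was 1 group. Whole animals, 2 replicates, unknown depth and shared promoters limit these values, and absence from a list does not show absence of binding.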
